A study of Homo sapiens with 3 samples.

Results

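The miR-146 family of HCCLM3 cells, a human hepatocellular carcinoma (HCC) line, was described in 3 small RNA libraries. Its members were chosen by name, as every listed mature miRNA called hsa-miR-146a or hsa-miR-146b with any arm suffix, and the family itself was picked on its measured levels in these same libraries, so that the values below are a description and carry no test. Of 1921 listed names, 4 belonged to the family, and 3 of these had at least 1 count. The libraries came from the parent line, labelled with low metastasis, from subclone1, labelled as more metastatic to the lung, and from subclone2, labelled as metastatic to lung and celiac lymph nodes. All were HCCLM3 strains grown untreated in DMEM, with 1 library each, so that no difference here has a replicate check. In the study's methods the parental line carried a red fluorescent protein and was described as highly metastatic, and its subclones were grown from single cells out of metastases in nude mice. By that account each subclone stands for 1 clone, but the labels do not tie subclone1 or subclone2 to a named line of the study.

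miRNAs are short RNAs cut from a hairpin precursor, whose 5′ or 3′ arm (5p or 3p) is loaded into an Argonaute protein and pairs with target mRNAs mainly through its seed, bases 2 to 8. miR-146a is known as a feedback regulator of inflammatory signalling. Its gene is switched on by the transcription factor NF-kB. The miRNA lowers IRAK1 and TRAF6, which carry signals from Toll-like and interleukin-1 receptors to NF-kB. miR-146b comes from a different chromosome and has the same seed.

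The mature sequences from RefSeq are shown because the measurement rests on how far the pair can be told apart. The seed is in capitals.

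hsa-miR-146a-5p: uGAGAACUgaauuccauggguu

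hsa-miR-146b-5p: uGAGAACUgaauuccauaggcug

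hsa-miR-146a-3p: cCUCUGAAauucaguucuucag

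hsa-miR-146b-3p: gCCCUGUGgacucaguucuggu

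The 5p arms share the seed GAGAACU and their first 17 bases. Counted from the 5′ end, they differ by the substitutions G18A and U21C, miR-146a first, and miR-146b-5p has 23 bases where miR-146a-5p has 22. In the next lines the differing bases are in capitals.

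hsa-miR-146a-5p: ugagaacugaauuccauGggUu

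hsa-miR-146b-5p: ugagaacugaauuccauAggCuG

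A read of the first 17 bases alone fits both. No other mature sequence in the RefSeq table shares 15 or more consecutive bases with either 5p arm. The 3p arms have different seeds and at most 8 consecutive bases in common. Among the 2370 mature names in RefSeq, hsa-miR-7153-5p is the only other one with the seed of the 5p arms, and the count tables do not list it.

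The MIR146A hairpin lies on chromosome 5 at 160485352 to 160485450 (GRCh38, plus strand), wholly within an exon of the long non-coding RNA gene MIR3142HG (160438594 to 160487426, GENCODE release 29). The MIR146B hairpin lies on chromosome 10 at 102436512 to 102436584 (plus strand) and overlaps no other annotated gene. Its nearest neighbour is CUEDC2, at 3.85 kb, and NFKB2, which codes for an NF-kB subunit, ends 34.0 kb before it. The hairpins are printed with both arms in capitals, to show where each counted arm lies.

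MIR146A: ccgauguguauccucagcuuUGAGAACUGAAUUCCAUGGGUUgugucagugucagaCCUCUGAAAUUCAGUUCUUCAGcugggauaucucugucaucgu

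MIR146B: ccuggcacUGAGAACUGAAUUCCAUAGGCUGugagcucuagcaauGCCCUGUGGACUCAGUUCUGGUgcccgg

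The depth was 7902438 counts for the parent library, 3570864 for subclone1 and 4568075 for subclone2. Levels are given as CPM (reads per 1000000 reads counted in a library) with exact 95% binomial intervals (Clopper-Pearson), which cover counting error only. Apart from these intervals, a limit of 3 counts of the total was used for low counts, or 0.380, 0.840 and 0.657 CPM in the same order. At a count of 0 the exact intervals reach somewhat higher, to 0.467, 1.03 and 0.808 CPM. Comparisons with all miRNAs refer to the 192 names averaging 10 CPM or more in these libraries.

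hsa-miR-146a-5p was lowest in the parent and highest in subclone2. The parent had 111 counts, or 14.05 CPM (95% interval 11.6 to 16.9). In subclone1 it had 105 counts, or 29.4 CPM (24.1 to 35.6). In subclone2 it had 305 counts, or 66.8 CPM (59.5 to 74.7). The intervals of the 3 libraries do not overlap, and the order of levels was parent, subclone1, subclone2. Within each library it ranked 169th, 130th and 97th by read count.

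hsa-miR-146b-5p stood in the opposite order. It had 782 counts in the parent, or 98.96 CPM (95% interval 92.1 to 106). In subclone1 it had 265 counts, or 74.2 CPM (65.5 to 83.7), and in subclone2 197 counts, or 43.1 CPM (37.3 to 49.6). These intervals do not overlap either. Its rank moved from 89th in the parent to 99th and 107th in the subclones, so that in subclone2 it stood below miR-146a-5p.

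The sum of both 5p arms differed less between libraries than either arm. In the order parent, subclone1, subclone2 it was 893, 370 and 502 counts, which correspond to 113 CPM (95% interval 106 to 121), 104 CPM (93.3 to 115) and 109.9 CPM (100.5 to 119.9). These intervals overlap. Relative to the parent the sum was 0.917-fold in subclone1 (0.810 to 1.04) and 0.972-fold in subclone2 (0.870 to 1.09), and subclone2 against subclone1 gave 1.06-fold (0.925 to 1.22). By library total, all 3 intervals of the ratio hold 1. This depended on the scaling. Under TMM factors (a trimmed-mean scaling) the log2 ratio of subclone1 to the parent went from -0.12 to -0.19 (interval -0.37 to -0.01) and that of subclone2 to subclone1 from 0.08 to 0.32 (0.12 to 0.51), and the intervals of both also excluded 0 under the other 2 scalings. The log2 ratio of subclone2 to the parent changed sign, from -0.04 to 0.13 (-0.03 to 0.29), and its interval held 0 under all 4 scalings.

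The composition of the pair does not depend on the scaling of the libraries. miR-146a-5p made up 12.4% of the parent's pair (95% interval 10.3 to 14.8). The same share was 28.4% for subclone1 (23.8 to 33.3) and 60.8% for subclone2 (56.3 to 65.1). In other words, there were 7.05 reads of miR-146b-5p per read of miR-146a-5p in the parent library, against 2.52 for subclone1 and 0.646 for subclone2. miR-146b-5p was the major member in the parent and subclone1, and miR-146a-5p in subclone2. The odds of miR-146a against miR-146b were 2.79 times those of the parent in subclone1 (exact conditional interval 2.04 to 3.81) and 10.9 times in subclone2 (8.28 to 14.4). Between the subclones they differed 3.90-fold (2.90 to 5.27). The ligation of adapters in such kits favours some RNA ends, so the share of a library is a share of reads. Its change between libraries compares the same pair of names. Whether ligation acted alike in every library was not tested.

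**Figure D1:**
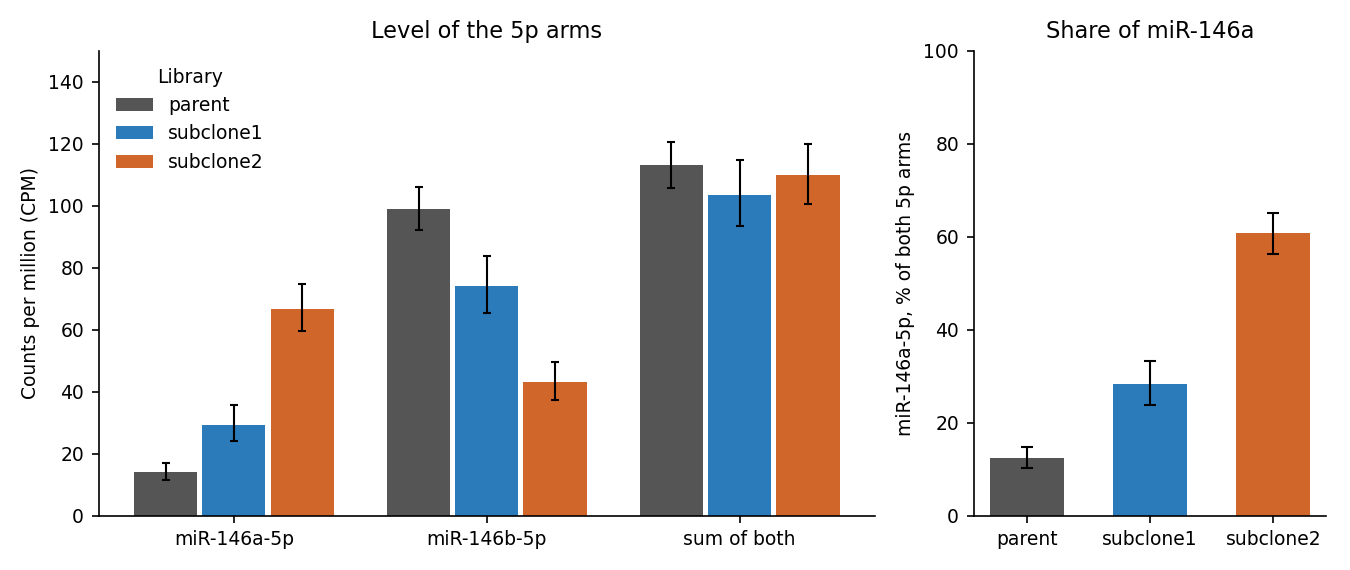
Left, level in CPM of miR-146a-5p, miR-146b-5p and their sum in the parent, subclone1 and subclone2 libraries; right, miR-146a-5p as a percentage of the reads of both 5p arms. Bars are single libraries and error bars exact 95% binomial intervals: miR-146a-5p goes from 14.05 to 66.8 CPM, miR-146b-5p from 98.96 to 43.1 CPM, and the sum lies between 104 and 113 CPM.

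How reads shared by the pair were assigned is not given in the sources used here. In another pair, hsa-miR-365a-3p and hsa-miR-365b-3p had equal counts, 618, 285 and 236 in the parent, subclone1 and subclone2. Whether shared reads of the miR-146 pair were counted for both names was not tested, and the moves below do not cover it. Moving reads back as if 5% of miR-146b-5p had been counted as miR-146a-5p gave shares of 7.82%, 24.6% and 58.7% in the parent, subclone1 and subclone2. The reverse move gave 13.1%, 29.9% and 64.0%. In an alternative chosen after the values were seen, the rate was set to 12.4%, at which every miR-146a-5p count of the parent would be a miscounted miR-146b-5p read. At the same rate in the other libraries, 37.6 of the 105 counts in subclone1 and 27.96 of the 305 in subclone2 would be miscounted, which leaves a share of 18.2% in subclone1 and 55.2% in subclone2. The order of the libraries was the same under each of these moves. Whether the rate differed between libraries was not tested.

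To ask which miRNAs differ with the labelled tropism, each subclone was set beside the parent over all 192 names. A miRNA was called when its ratio was at least 2-fold and the counting interval of the ratio excluded 1. Such a call compares libraries and not conditions.

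In subclone1, miR-146a-5p was 2.09-fold the parent level (interval 1.59 to 2.76), a log2 ratio of 1.07 with 0.5 counts added. It was among the 19 miRNAs called higher, which were 9.90% of those kept, and was the 17th highest ratio. The call lay at the threshold and was lost under median-of-ratios scaling (log2 0.9998) and with 12 miRNAs left out of the total, those among the 10 most abundant of any library (0.99). miR-146b-5p was 0.750-fold (0.650 to 0.863), a log2 ratio of -0.41 that was short of 2-fold. The 6 miRNAs called lower were 3.12% of those kept, and miR-146b-5p was not among them.

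In subclone2, miR-146a-5p was 4.75-fold the parent level (3.81 to 5.96). This size depended on the assignment of reads, since the log2 ratio was 2.86 (2.49 to 3.27) with 5% of the miR-146b-5p reads moved back. As deposited, its log2 ratio of 2.24 was the third highest of all kept miRNAs, of which 5.73% were called higher. miR-146b-5p was 2.29-fold lower than in the parent (1.96 to 2.70), a log2 ratio of -1.20. It was called lower together with 4.69% of the kept miRNAs and had the 9th lowest ratio. Over all kept miRNAs the median log2 ratio was -0.14, and TMM factors shifted every ratio by 0.17. Relative to that median, miR-146a-5p stood at 2.39 and miR-146b-5p at -1.06. Both calls held under the 3 other scalings, with log2 ratios of 2.32 to 2.42 for miR-146a-5p and -1.12 to -1.02 for miR-146b-5p.

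The comparison of subclone2 with subclone1 sets the library labelled with dual tropism beside that labelled with lung tropism. miR-146a-5p was 2.27-fold higher in subclone2 (1.81 to 2.86), a log2 ratio of 1.18. It was 1 of 3 miRNAs called higher, or 1.56% of those kept, and had the second highest ratio. miR-146b-5p was 0.581-fold (0.481 to 0.701), a log2 ratio of -0.78, and was not among the 4.17% called lower. Its interval excluded 1, so the difference was larger than counting error but smaller than the fold threshold. The median log2 ratio here was -0.16, and relative to it miR-146a-5p stood at 1.34 and miR-146b-5p at -0.62. These 3 comparisons share libraries and are not independent of each other.

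**Figure D2:**
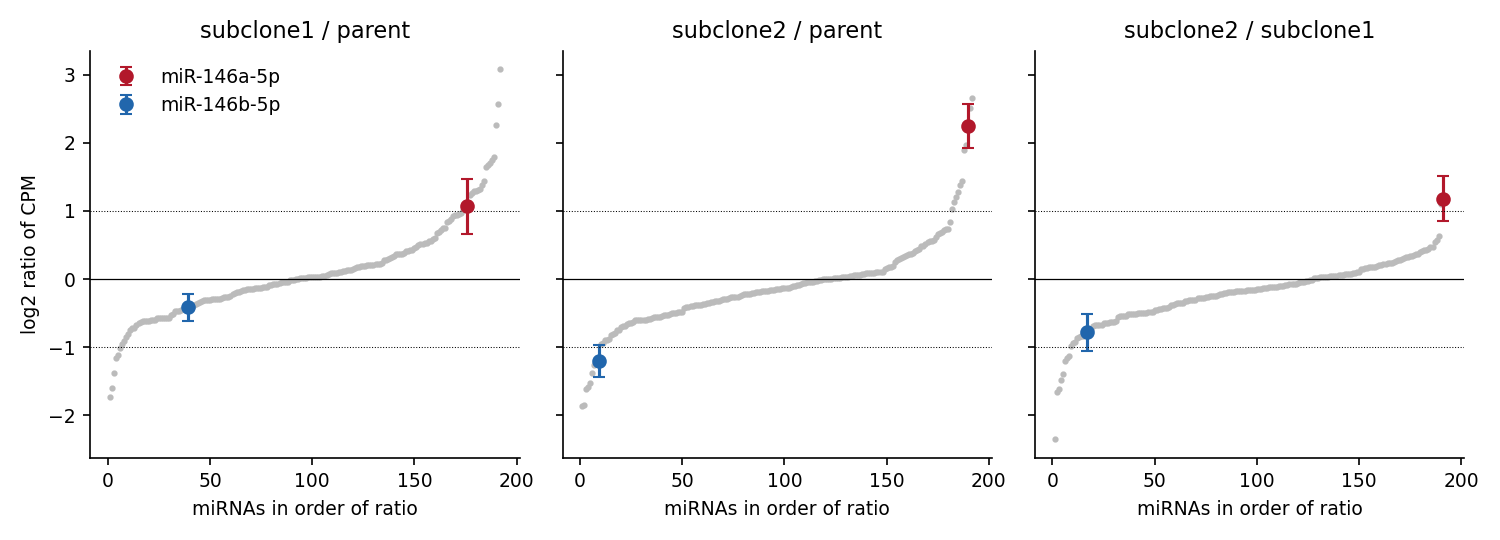
Ratios of all 192 kept miRNAs in each comparison, ordered from lowest to highest, with the log2 ratio of CPM on the vertical axis, 2-fold marked by dotted lines, and 95% counting intervals on the marked miRNAs. miR-146a-5p lies near the upper end in each panel (log2 1.07, 2.24 and 1.18) and miR-146b-5p on the lower side (-0.41, -1.20 and -0.78).

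The 3p arms, which are the passenger strands of these hairpins, were all but absent. hsa-miR-146a-3p had 0 counts in every library. hsa-miR-146b-3p had 0 counts in the parent, 1 in subclone1 (0.280 CPM, 95% interval 0.00709 to 1.56) and 0 in subclone2. No fold is given, since every value is at or under the limit of 3 counts. Over the libraries, 1 of 1245 reads of the miR-146b hairpin came from its 3p arm, or 0.0803% (0.00203 to 0.447). For miR-146a, 0 of 521 reads came from the 3p arm. By the limit of 3 counts, which is not an exact interval, this allows a share of up to 0.576%. A comparison with 83 stems with both arms listed and at least 500 reads was added after the values were seen. The median share of the minor arm was 1.25%. Counting miR-146b itself, 21 of the 83 had a share no higher than that of miR-146b. The 3p arms therefore could not serve as a second readout of which hairpin was more abundant in a library.

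Other paralogue pairs were treated in the same way, to set the change in composition beside its background. They were all pairs of names with the same number and arm and the letters a and b, at least 100 counts for the pair in each library, at least 10 counts for each member in all and unequal counts. This gave 27 pairs. The share of miR-146a-5p spanned 48.3 percentage points over the libraries, while the other 26 pairs spanned a median of 4.64 points and 2 of them more than 10. The odds moved by 2-fold or more, with 1 outside the interval, in 3.70% of the pairs in each comparison, and this was the miR-146 pair each time. In subclone2 against the parent, the odds of miR-99-3p (0.393-fold) and miR-181-3p (2.09-fold) passed 2-fold with intervals holding 1. Those of miR-148-3p were 1.96-fold (1.08 to 3.54), short of the threshold, with a span of 2.04 points. A pair with a share near 0% or 100% can have a small span at a large change of odds. The families were not drawn independently of their values, so the comparison of pairs is a description.

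The 4 next widest pairs were miR-365-5p, miR-1269, miR-92-3p and miR-193-3p. In the same order of libraries, the share of miR-365a-5p was 57.4%, 52.5% and 44.4%, a span of 13.0 points. That of miR-1269a was 67.95%, 69.2% and 58.2%. miR-92a-3p, which comes in part from the miR-17-92 cluster, went from 39.6% to 35.3% and 30.2%, and miR-193a-3p from 12.9% to 18.3% and 21.4%. None of these changed its major member except miR-365-5p, where the b member led in subclone2.

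**Figure D3:**
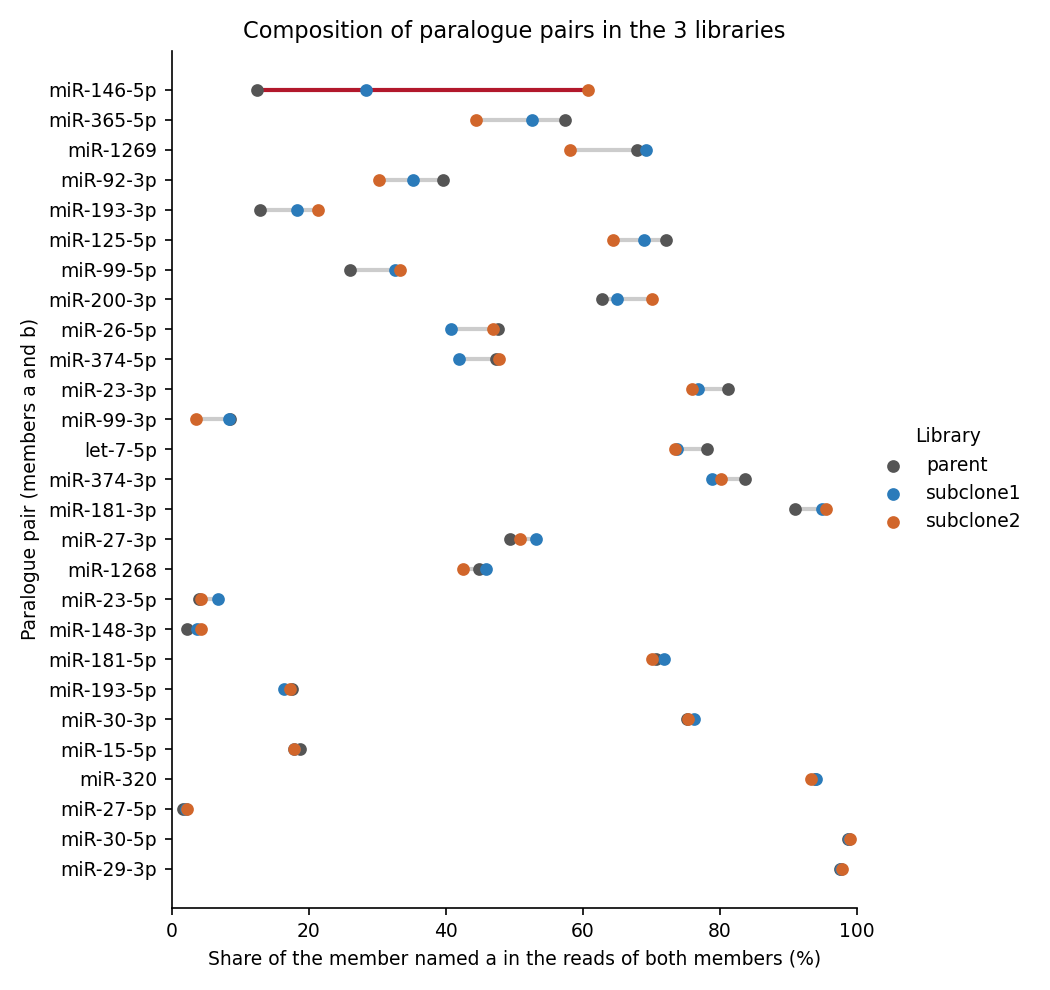
Share of the member named a in the reads of each of 27 paralogue pairs, in percent, with 1 point for each library and a line from the lowest to the highest share. The miR-146 pair (red line, top) spans 48.3 points, from 12.4% in the parent to 60.8% in subclone2, and the next widest, miR-365-5p, 13.0 points.

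Next, other miRNAs known to be induced by NF-kB or to act on its pathway were examined. Every arm of a listed miRNA was taken, which gave 34 names, of which 32 were detected and 13 passed the minimum level. The 13 are thus not separate miRNAs. They hold hsa-miR-16-2-3p, hsa-miR-21-3p and hsa-miR-221-5p beside hsa-miR-16-5p, hsa-miR-21-5p and hsa-miR-221-3p, and a link of each arm to NF-kB was not tested. hsa-miR-10a-5p was the 1 of 13 called higher in each subclone against the parent, beside 9.90% of all kept miRNAs in subclone1 and 5.73% in subclone2. None of the 13 was called lower, beside 3.12% and 4.69%. These counts are near the shares over all kept miRNAs. The median log2 ratio of the 13 was -0.26 in subclone1 and -0.50 in subclone2, beside 0.02 and -0.14 over all kept miRNAs. Between the subclones 0 of 13 were called, beside 1.56% of all kept miRNAs higher and 4.17% lower, with a median of -0.25 beside -0.16.

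hsa-miR-155-5p, the other classical NF-kB-induced miRNA of immune cells, had 0, 1 and 0 counts in the parent, subclone1 and subclone2. hsa-miR-21-5p, an abundant miRNA of many tumours, had 39672, 32209 and 32945 CPM in the same order. hsa-miR-10a-5p, known as a brake on NF-kB activation in endothelium, had 178, 613 and 696 CPM. The pair hsa-miR-132-3p and hsa-miR-212-3p, which come from a shared transcript, had 19, 8 and 8 counts and 4, 2 and 1 counts. hsa-miR-125b-5p, with 138, 124 and 141 CPM, and hsa-miR-181b-5p, with 769, 769 and 523 CPM, stayed within 2-fold. hsa-miR-222-3p, the most abundant name of the list, had 104085, 68715 and 53756 CPM, with log2 ratios to the parent of -0.60 and -0.95 that were short of 2-fold. In subclone2 against the parent, the ratio of miR-146a-5p thus lay above and that of miR-146b-5p below those of all 13 kept names, while in subclone1 miR-10a-5p lay above miR-146a-5p. Under the minimum level, hsa-miR-222-5p (98, 18 and 12 counts) had log2 ratios to the parent of -1.27 and -2.19, both with intervals excluding 0. hsa-miR-301a-3p (26, 5 and 5 counts) had -1.12, with an interval holding 0, and -1.48, with an interval excluding 0. In subclone2 both lay below miR-146b-5p. No list name under the minimum was at least 2-fold higher with an interval excluding 0.

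**Figure D4:**
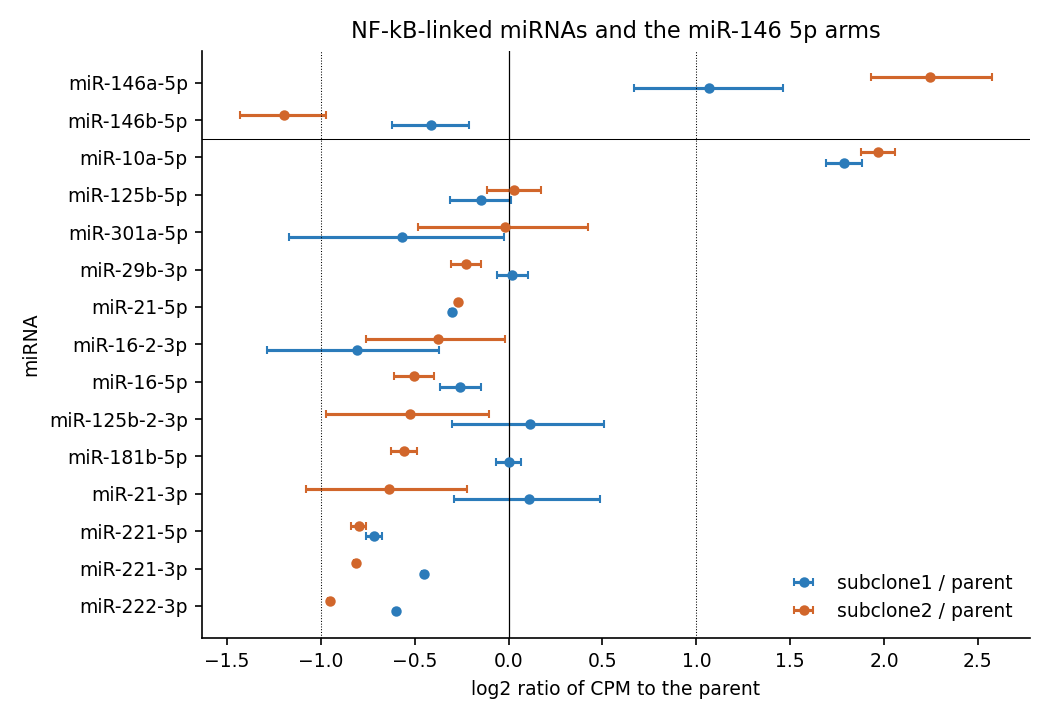
log2 ratio of CPM to the parent for subclone1 (blue) and subclone2 (orange), for the 2 miR-146 5p arms (top) and the 13 kept names of the NF-kB list, with 95% counting intervals and dotted lines at 2-fold. miR-10a-5p is the kept list member beyond 2-fold, at 1.79 and 1.97, and miR-146a-5p and miR-146b-5p lie on opposite sides of 0.

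The surroundings of each hairpin were then searched for other listed miRNAs. Within 5 Mb of MIR146A the tables list hsa-miR-3142, which comes from the same host transcript, at 10.9 kb by the GENCODE annotation. It had 0 counts in every library, so it gave no second reading of that transcript. Within 5 Mb of MIR146B 12 names are listed, of which 5 were detected and 3 kept. hsa-miR-1307-3p, 958 kb away, had 822, 868 and 715 CPM in the parent, subclone1 and subclone2, within 2-fold throughout. hsa-miR-1307-5p, from the other arm of that hairpin, had 5.95, 50.7 and 9.85 CPM, highest in subclone1. hsa-miR-1287 had 11.0, 15.1 and 11.8 CPM. None of the 3 shared the order of miR-146b-5p, which was highest in the parent and lowest in subclone2.

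Among 191 other kept miRNAs, those with the pattern most like a member were named by the Euclidean distance of centred log2 CPM over the 3 libraries. Nearest to miR-146a-5p was hsa-miR-215, at a distance of 0.32, with 21.8, 59.1 and 137 CPM in the parent, subclone1 and subclone2. It was followed by hsa-miR-192-5p (0.70), hsa-miR-10a-5p (0.73), hsa-miR-1269b (0.73) and hsa-miR-200a-3p (0.80). miR-192-5p, miR-215 and miR-194-5p are miRNAs of liver and gut epithelium. miR-192-5p had 18528, 60246 and 69068 CPM and thus differed little between the subclones.

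Nearest to miR-146b-5p was hsa-miR-181a-2-3p (0.14), with 66.1, 43.1 and 27.6 CPM. It was followed by hsa-miR-30e-3p (0.21), hsa-miR-374a-5p (0.25), hsa-miR-374b-5p (0.27) and hsa-miR-17-3p (0.30). Seen from miR-146b-5p, miR-146a-5p was 188th of 191, and seen from miR-146a-5p, miR-146b-5p was 182nd. With 3 libraries such distances rest on few points, and many names lie close to each other.

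Because miR-146a is abundant in blood cells, markers of other cell types were counted. The 5 leukocyte names summed to 5, 6 and 5 counts in the parent, subclone1 and subclone2 (0.633, 1.68 and 1.09 CPM), and hsa-miR-142-3p, a defining marker of blood cells, was at 0 in all. The 4 names of fibroblasts and smooth muscle summed to 8, 2 and 1 counts, and the 2 endothelial names to 5, 8 and 2. Of the 4 erythroid names hsa-miR-486-5p gave nearly all counts (129, 35 and 70), while hsa-miR-451a had 0, 1 and 1. The erythroid list thus summed to 16.3, 10.4 and 15.5 CPM, above miR-146a-5p in the parent and below it in the subclones, and each of the other 3 lists to at most 2.24 CPM in any library. Whether other cells contributed to the miR-146a-5p reads was not tested. Among hepatocyte markers, hsa-miR-122-5p, the dominant miRNA of liver cells, had 6.71, 5.32 and 3.94 CPM, and hsa-miR-885-5p was at 0 in all. hsa-miR-192-5p and hsa-miR-194-5p, which gut epithelium also makes, were present in every library, the latter with 108, 271 and 263 CPM, and both were called higher in each subclone against the parent, beside the 9.90% and 5.73% of kept miRNAs called higher. Their part in the miR-146a-5p result was not tested. The defining hepatocyte marker hsa-miR-122-5p stayed under the minimum of 10 CPM in every library.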

How the data were processed

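RNA from 3 cultured strains was taken with Trizol and made into libraries with the Illumina TruSeq Small RNA kit. The authors deposited unscaled read counts per mature miRNA name. The submitters' processing notes name CASAVA 1.4 and hg19. The aligner, the miRNA database release and the treatment of shared reads are not given in the sources used here, and the published text does not describe the small RNA libraries. Counts of 7902438, 3570864 and 4568075 set the depth.

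The family, the lists and the rules were chosen with earlier results of these data known. Levels are relative to each library total, and log2 ratios took 0.5 added counts. Ratios carry exact conditional binomial intervals, and shares Clopper-Pearson intervals. Odds of pairs came from the conditional interval of R 4.3.3. Each group holds 1 library, so groups were compared by size alone. A call required 2-fold and an interval excluding 1. Named were the family, names with its seed, kept miRNAs within 5 Mb, the lists, the 5 nearest patterns and the 5 widest pairs. The alternatives were edgeR 4.0.16 TMM factors, DESeq2 1.42.0 size factors, other totals, thresholds, minima and added counts, and reads moved between the pair. The ratio rule was tested on simulated data with counting error alone, which cannot show how it behaves under variation between replicate libraries. Sequences and mature positions are from RefSeq (GRCh38.p14), which placed 1867 of 1921 names, and gene annotation from GENCODE release 29. The tables give no coordinates.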

Additional observations from a re-analysis of the deposited data

How the results depend on the processing

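Among 66 values of the miR-146 ratios under the alternatives, 57 kept their side of the 2-fold threshold or stayed within their interval, 5 fell short of the threshold, 1 passed it, 3 moved and 0 changed the sign of a called value. For miR-146a-5p in subclone1 against the parent, the log2 ratio fell short of 2-fold under median-of-ratios scaling (0.9998) and without the 12 miRNAs that were among the 10 most abundant of any library (0.99), because it lies next to the threshold. With a threshold of 4-fold, the calls of miR-146a-5p in subclone1 against the parent (1.07) and in subclone2 against subclone1 (1.18), and of miR-146b-5p in subclone2 against the parent (-1.20), were lost, and with 1.5-fold miR-146b-5p passed in subclone2 against subclone1 (-0.78). The summed pair moved to log2 0.13 in subclone2 against the parent under TMM, and to 0.32 under TMM and 0.30 under median-of-ratios in subclone2 against subclone1. Its interval excluded 0 under all 3 other scalings in subclone1 against the parent (-0.20 to -0.19) and in subclone2 against subclone1 (0.23 to 0.32). With 5% of miR-146b reads moved back, the log2 ratio of miR-146a-5p to the parent was 1.53 in subclone1 and 2.86 in subclone2.

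The share of miR-146a moved beyond its interval in the parent when 5% of miR-146b reads were moved back (7.82%). At the rate that empties the parent, an alternative chosen after the data were seen, it was 0% for the parent, 18.2% for subclone1 and 55.2% for subclone2. Counting both arms left it within its interval.

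Against the parent, 25 miRNAs were called in subclone1 and 20 in subclone2, and 11 were called between both subclones. With 1.5-fold they were 56, 53 and 35, with 4-fold 3, 3 and 1, with a minimum of 100 CPM 7, 6 and 1, and with no minimum 67, 75 and 33. Between the subclones, 3 were higher and 8 lower by library total, and 3 higher and 5 lower under TMM and under median-of-ratios. Of the pairs, 1 was called in each comparison. With at least 1000 counts required, which the miR-146 pair does not have, 0 were called in each, and with odds of 1.5-fold 3, 6 and 3. No fold of miR-146b-3p was recomputed, since its counts are at or under the limit in every library. No paired analysis was possible because every strain was sequenced as 1 library, and none could be left out.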
